A study of Homo sapiens with 4 samples.

Results

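The 10 genes described here encode chemokines and interleukins that epithelial cells release in inflammation: CXCL1, CXCL2, CXCL3, CXCL5, CXCL6, CXCL8, CCL20, IL1A, IL1B and IL6. They were chosen as a gene group by function, out of the 19775 genes with a probe set of their own. Earlier results of these data were known when they were chosen. Every probe set annotated to exactly 1 of them was taken, 17 in all. RNA came from MCF10A, an immortalized but non-tumorigenic human mammary epithelial cell line, infected with retrovirus carrying wild-type YAP (YAP-WT), YAP-S94A, YAP-W1W2 or the empty pQCXIH vector. YAP is the transcriptional coactivator restrained by the Hippo pathway; S94A impairs its binding to TEAD transcription factors, and W1W2 alters both of its WW domains. All 4 cultures, the control included, were infected cells grown with horse serum, EGF, hydrocortisone, cholera toxin and insulin. Each group is 1 Affymetrix array with no replicate, so all differences below are between 2 arrays and have no test and no error. The sources used here do not give the time after infection, any drug selection, or whether cells were pooled or cloned.

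CXCL1, CXCL2, CXCL3, CXCL5, CXCL6 and CXCL8 belong to the CXC chemokines that carry the ELR motif, bind the receptor CXCR2 and draw neutrophils into tissue. CCL20 binds CCR6 and attracts dendritic cells and T cells of the Th17 type. IL1A, an alarmin stored in epithelial cells, and IL1B, which is cut into its active form by caspase-1, both signal through IL1R1. IL6 signals through IL6R and IL6ST. Transcription of most of these genes is known to be driven by NF-kB, often with AP-1 and C/EBP factors, and their mRNAs decay quickly through AU-rich elements.

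The promoters are shown beside the main pattern below, a split among chemokines. Whether their letters bear on that split was not tested. CXCL1, CXCL2 and CXCL3 varied together, although CXCL3 was dim and CXCL2 did so by its brightest probe set alone. CXCL8 stood apart in YAP-S94A, and CCL20 went the other way. The promoter of IL1A, whose brightest probe set varied like that of CXCL1, is not printed. Each run covers the 250 bases before and 50 bases after the RefSeq start in GRCh38.p14, read 5′ to 3′ on the gene's strand. CXCL1 lies at chr4:73869143-73869442 on the plus strand, CXCL2 at chr4:74099146-74099445 on the minus strand, CXCL3 at chr4:74038640-74038939 on the minus strand, CXCL8 at chr4:73740319-73740618 on the plus strand and CCL20 at chr2:227813592-227813891 on the plus strand. Capitals mark the letters searched on both strands: GGANNTTCC, a form of the NF-kB site, in the CXC genes, TGANTCA, the AP-1 site, in CXCL8, and GGAATG, the TEAD site, in CCL20, where it lies on the opposite strand and reads CATTCC.
CXCL1: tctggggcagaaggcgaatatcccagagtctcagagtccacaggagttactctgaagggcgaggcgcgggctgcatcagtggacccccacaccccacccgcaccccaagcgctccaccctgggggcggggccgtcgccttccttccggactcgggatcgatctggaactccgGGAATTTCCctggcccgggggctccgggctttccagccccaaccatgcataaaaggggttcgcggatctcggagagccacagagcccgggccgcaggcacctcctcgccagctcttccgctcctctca
CXCL2: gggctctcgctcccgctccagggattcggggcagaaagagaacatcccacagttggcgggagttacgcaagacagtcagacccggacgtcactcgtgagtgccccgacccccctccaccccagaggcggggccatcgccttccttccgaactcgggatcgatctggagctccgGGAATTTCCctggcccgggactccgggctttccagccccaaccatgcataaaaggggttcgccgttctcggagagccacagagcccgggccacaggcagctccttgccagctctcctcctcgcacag
CXCL3: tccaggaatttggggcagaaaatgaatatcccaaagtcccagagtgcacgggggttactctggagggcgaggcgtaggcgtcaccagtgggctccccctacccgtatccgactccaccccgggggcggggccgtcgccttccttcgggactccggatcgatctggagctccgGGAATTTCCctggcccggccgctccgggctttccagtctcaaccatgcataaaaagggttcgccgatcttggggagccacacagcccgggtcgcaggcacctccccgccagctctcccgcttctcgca
CXCL8: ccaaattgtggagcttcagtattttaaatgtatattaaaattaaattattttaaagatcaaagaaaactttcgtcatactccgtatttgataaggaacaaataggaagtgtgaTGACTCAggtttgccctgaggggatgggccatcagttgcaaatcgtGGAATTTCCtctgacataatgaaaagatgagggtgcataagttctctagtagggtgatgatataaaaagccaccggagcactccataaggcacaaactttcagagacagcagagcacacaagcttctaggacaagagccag
CCL20: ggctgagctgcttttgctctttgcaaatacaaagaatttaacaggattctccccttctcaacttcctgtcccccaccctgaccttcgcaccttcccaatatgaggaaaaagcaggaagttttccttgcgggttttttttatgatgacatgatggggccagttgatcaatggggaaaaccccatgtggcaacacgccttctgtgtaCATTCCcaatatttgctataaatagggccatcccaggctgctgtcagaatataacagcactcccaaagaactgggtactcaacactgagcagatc
The same letters GGAATTTCC, which match the NF-kB form on both strands, begin 78 bases before the start in CXCL1, 77 in CXCL2, 78 in CXCL3 and 91 in CXCL8. They were also present in CXCL5, 90 bases before the start, and in CXCL6, 89 bases before it. IL6 held another match, GGATTTTCC, 72 bases before its start. In all, 7 of the 10 genes had a match, against 4.56% of 35116 RefSeq promoters of the same length. CCL20, IL1A and IL1B had none. Other forms of the NF-kB site were not searched, so these genes are not shown to lack one. The TEAD letters occurred in 1 of the 10, CCL20, against 14% of promoters, and the AP-1 letters in 2, CXCL8 and IL1A, against 7.71%. CXCL1 and CXCL3 were identical at 82.5% of aligned positions, CXCL1 and CXCL2 at 72.1%, and CXCL2 and CXCL3 at 73.8%. A match of letters in this window shows no binding, and the motifs were chosen after the array values were known.

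Of the 10 genes, 7 were measured, meaning that the brightest probe set averaged at least 113.6, the median over all probe sets. They were CXCL1, CXCL2, CXCL8, CCL20, IL1A, IL1B and IL6. CXCL3, CXCL5 and CXCL6 were dim and enter no count. Intensities below 72.9, the 40th percentile of all values, were set to that floor before a fold was taken; where 1 of 2 arrays lay there the fold is written as "at least", and where both did, no fold is given. Among the genes with several probe sets, the brightest is used unless stated.

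**Figure D1:**
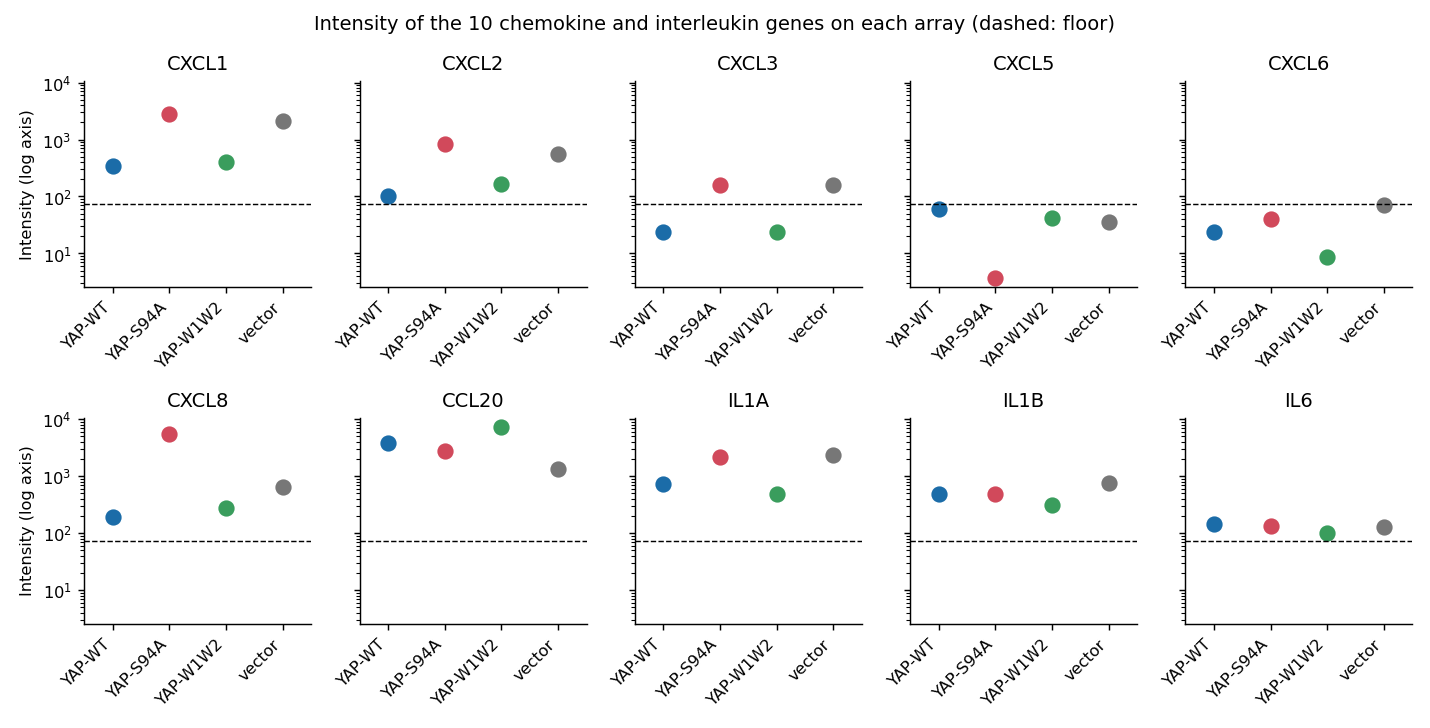
Deposited intensity (log axis) of the brightest probe set of each of the 10 genes on the 4 arrays, 1 point per array, with the floor of 72.9 as a dashed line. CXCL1, CXCL2, CXCL3 and IL1A are low in YAP-WT and YAP-W1W2 and near the vector level in YAP-S94A, CXCL8 peaks in YAP-S94A at 5413.5, and CCL20 is lowest in vector at 1325.

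The arrays were close in overall brightness, with 2% trimmed means of 457.9 to 502.9, a ratio of 1.098, and the median measured gene stood 0.10 to 0.15 (log2) above vector in the YAP arrays. The YAP1 probe set read 3461.5 in YAP-WT, 4208.4 in YAP-S94A, 4657 in YAP-W1W2 and 4085.5 in vector; whether it lies within the constructs is not known, so it checks no label. CCN2, a TEAD-dependent YAP target, read 5523.3 in YAP-WT, 636.5 in YAP-S94A, 8074.9 in YAP-W1W2 and 322.8 in vector. Basal epithelial markers were bright on all arrays: the 4 of 8 with a probe set of their own, KRT5 and KRT14 among them, summed to 76747.6 to 85636.5. General epithelial markers, 4 of 5 measured, summed to 32395.5 in YAP-WT, 38577.6 in YAP-S94A, 62635.6 in YAP-W1W2 and 15872.2 in vector, most of it KRT8 and KRT18. Without these keratins the sums were 6474.1 in YAP-WT, 13442 in YAP-S94A, 11753.6 in YAP-W1W2 and 6418.6 in vector, with YAP-S94A highest. Leukocyte markers, whose cells are a common source of these cytokines, had 5 of 11 measured and a summed intensity of 5762.1 in YAP-WT, 2050.2 in YAP-S94A, 5220.2 in YAP-W1W2 and 4559.9 in vector, with LAPTM5 the brightest on each array. PTPRC, the pan-leukocyte antigen, lay between 21.7 and 74.6 on all arrays, at or near the floor. Without LAPTM5 the sums were 1793.4 in YAP-WT, 1295.1 in YAP-S94A, 1493.8 in YAP-W1W2 and 1712.3 in vector. Single markers differed in order: ITGAM was highest in YAP-S94A, at 284.5, and CD14 in vector, at 311.9. Fibroblast markers, 4 of 8 measured, summed to 5340.4 in YAP-WT, 1434.8 in YAP-S94A, 1827.3 in YAP-W1W2 and 10362.2 in vector, with DCN most of the sum in YAP-WT and vector. The part of these marker differences in the results below was not tested. The 3′ to 5′ intensity ratio ran from 0.961 in vector to 1.035 in YAP-S94A for the GAPDH control, and from 0.964 in YAP-W1W2 to 1.155 in vector for the actin control. In such bulk RNA, fewer expressing cells and less RNA per cell cannot be told apart.

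The neutrophil chemokines CXCL1 and CXCL2 were lower with wild-type YAP and with the WW-domain mutant, and not with the TEAD-binding mutant. CXCL1 had an intensity of 348.7 in YAP-WT, 2842 in YAP-S94A, 397.1 in YAP-W1W2 and 2136.7 in vector. YAP-WT and YAP-W1W2 were both far below the other arrays, and YAP-S94A was slightly above vector. On the linear scale CXCL1 was 6.13-fold lower in YAP-WT than in vector and 5.38-fold lower in YAP-W1W2, while YAP-S94A exceeded vector 1.33-fold. Set directly against YAP-WT, it was 8.15-fold higher in YAP-S94A and 1.14-fold higher in YAP-W1W2.

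CXCL2, the close paralog of CXCL1, had the same order of arrays. It read 102.9 in YAP-WT, 841.9 in YAP-S94A, 163.5 in YAP-W1W2 and 566.8 in vector. The intensity in YAP-WT was near the floor of 72.9, so the log2 folds of −2.46 for YAP-WT over vector and 3.03 for YAP-S94A over YAP-WT have little room below them. YAP-W1W2 over vector was −1.79 and YAP-S94A over vector 0.57. These values come from a probe set of the _x_at class, which Affymetrix uses for probes that can also bind similar transcripts, and whether CXCL1 or CXCL3 RNA contributes was not tested. The 2 other CXCL2 probe sets were dim and did not share the pattern: one read 70.7 to 93.8 and differed by at most 0.27 (log2) from vector, and the other lay between 3 and 12.2.

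CXCL3 was dim, with 23.8 in YAP-WT, 157.4 in YAP-S94A, 23.6 in YAP-W1W2 and 157.1 in vector. It was above the floor in YAP-S94A and vector, which were nearly equal, and below it in the other two. YAP-WT and YAP-W1W2 were therefore each at least 2.16-fold below vector, and YAP-S94A was at least 2.16-fold above YAP-WT. CXCL6, which also binds CXCR1, read 24.1 in YAP-WT, 40.7 in YAP-S94A, 8.5 in YAP-W1W2 and 70.7 in vector. All 4 values lay below the floor and have no order. CXCL5 was below the floor with all 3 of its probe sets on every array, with values from 1.5 to 60.2.

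CXCL8, the human neutrophil chemokine also called interleukin-8, was the member with the widest range. Its intensity was 189.8 in YAP-WT, 5413.5 in YAP-S94A, 275.1 in YAP-W1W2 and 644.9 in vector. YAP-S94A alone was above vector, while YAP-WT and YAP-W1W2 were both below it. Relative to vector, CXCL8 was 8.39-fold higher for YAP-S94A, 3.40-fold lower for YAP-WT and 2.34-fold lower for YAP-W1W2. YAP-S94A exceeded YAP-WT 28.5-fold. The second probe set for CXCL8 kept the order of the arrays, with 61.8 in YAP-WT, 1662.2 in YAP-S94A, 103.4 in YAP-W1W2 and 254.5 in vector. Its log2 fold was 2.71 for YAP-S94A over vector, against 3.07 for the brighter one, and −1.30 for YAP-W1W2 over vector, against −1.23. Its YAP-WT value lay below the floor, which makes YAP-WT at least 3.49-fold lower than vector. The brighter probe set is of the _x_at class and the second of the _s_at class, which marks probes shared by several transcripts.

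CCL20, the CCR6 ligand, was higher with every form of YAP. It read 3793.8 in YAP-WT, 2740.2 in YAP-S94A, 7270.3 in YAP-W1W2 and 1325 in vector. The vector array was the lowest and YAP-W1W2 the highest. Relative to vector, its only probe set was 2.86-fold higher for YAP-WT, 2.07-fold higher for YAP-S94A and 5.49-fold higher for YAP-W1W2. The YAP-S94A value sits close to the 2-fold limit and drops to a log2 fold of 0.90 when the arrays are centred on the median measured gene. Against YAP-WT, CCL20 was 1.38-fold lower in YAP-S94A and 1.92-fold higher in YAP-W1W2. CCR6 itself was below the floor on all arrays.

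IL1A was lower in YAP-WT and YAP-W1W2 and near the vector level in YAP-S94A, as was CXCL1. Its brightest probe set read 731.4 in YAP-WT, 2184.7 in YAP-S94A, 483.3 in YAP-W1W2 and 2355.8 in vector. YAP-S94A was 1.08-fold below vector, while YAP-WT was 3.22-fold and YAP-W1W2 4.87-fold below it, and YAP-S94A stood 2.99-fold above YAP-WT. The second IL1A probe set was dim, at 98.4 in YAP-WT, 77.8 in YAP-S94A, 132.8 in YAP-W1W2 and 130.8 in vector, and did not share this order: YAP-S94A was its lowest array.

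IL1B was lower than vector on every YAP array by both of its measured probe sets. The brighter read 482.2 in YAP-WT, 494 in YAP-S94A, 308.6 in YAP-W1W2 and 745.7 in vector, and the other 289.4 in YAP-WT, 524.4 in YAP-S94A, 215.1 in YAP-W1W2 and 871.8 in vector. YAP-W1W2 was the lowest array and vector the highest by either. The log2 folds over vector were −0.63 and −1.59 for YAP-WT, −0.59 and −0.73 for YAP-S94A, and −1.27 and −2.02 for YAP-W1W2. Whether IL1B passed 2-fold in YAP-WT thus depended on the probe set. For YAP-S94A over YAP-WT the probe sets gave log2 folds of 0.03 and 0.86.

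IL6 was near the limit of measurement and showed little variation. It read 145.3 in YAP-WT, 133.8 in YAP-S94A, 100.4 in YAP-W1W2 and 128.1 in vector, a range of 0.53 on the log2 scale. None of its 5 comparisons reached 2-fold.

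**Figure D2:**
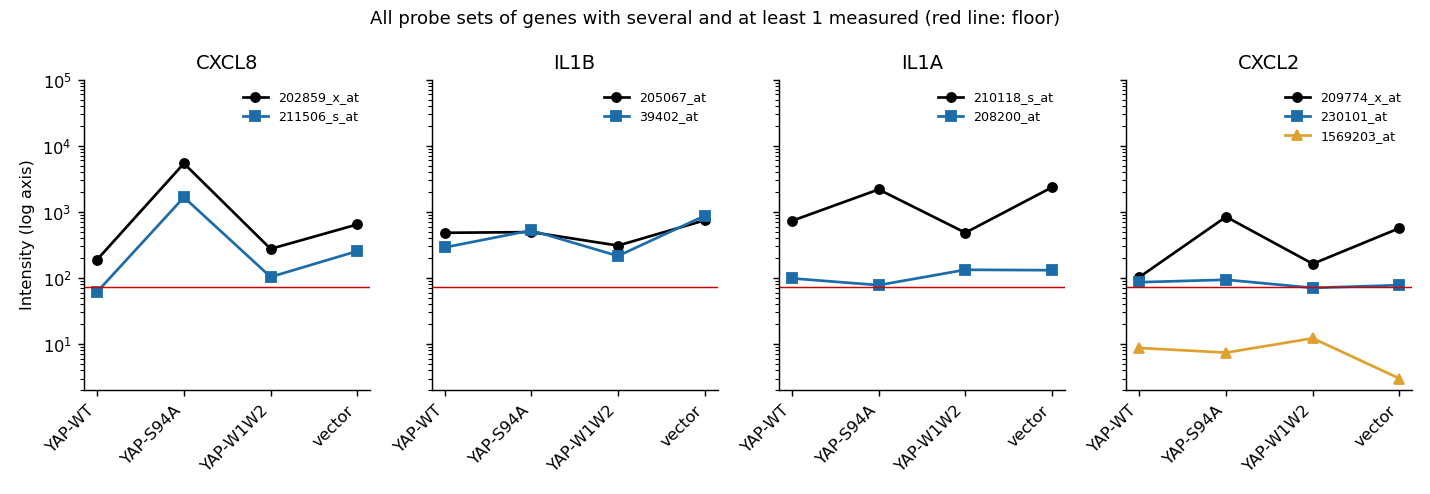
Deposited intensity (log axis) of every probe set of the 4 genes that have several probe sets and at least 1 that is measured, on the 4 arrays, with the floor as a red line. The probe sets of CXCL8 and of IL1B keep a like order, whereas the dim probe sets of IL1A and CXCL2 do not share the pattern of the bright ones.

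Of the 7 measured members of the group, 4 passed 2-fold downwards and 1 upwards for YAP-WT against vector, where 4.95% of all 12759 measured genes were lower and 9.11% higher. The lower ones were CXCL1, CXCL2, CXCL8 and IL1A, and the higher one was CCL20. The median log2 fold of the 7 was −1.69, against 0.14 for all measured genes. In YAP-W1W2 against vector, 5 were lower and 1 higher, against backgrounds of 8.4% and 11.4%; IL1B joined the lower genes, and the median was −1.27, against 0.10. In YAP-S94A against vector, 0 were lower and 2, CXCL8 and CCL20, were higher, against 6.53% and 10.3%, with a median of 0.41, against 0.15. These 3 comparisons share the vector array. The group and the related lists below were chosen with earlier results of these data known. Their counts beside the background are therefore descriptive. For YAP-S94A over YAP-WT, 4 of the 7 passed 2-fold upwards and 0 downwards, against 5.06% and 6.27%, with a median of 1.58, against 0.01. For YAP-W1W2 over YAP-WT, 0 of the 7 passed 2-fold, against 3.91% higher and 5.59% lower, and the median was 0.19, against −0.04. After centring on the median measured gene 1 did, CCL20 at a log2 fold of 1.07.

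These counts lean on probe sets of the _s_at and _x_at classes. With plain _at probe sets alone, the measured genes were 4, CXCL1, CCL20, IL1B and IL6, with the folds given above, since CXCL8 has no such probe set and those of CXCL2 and IL1A are dim; the median for YAP-S94A over YAP-WT was then −0.04.

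**Figure D3:**
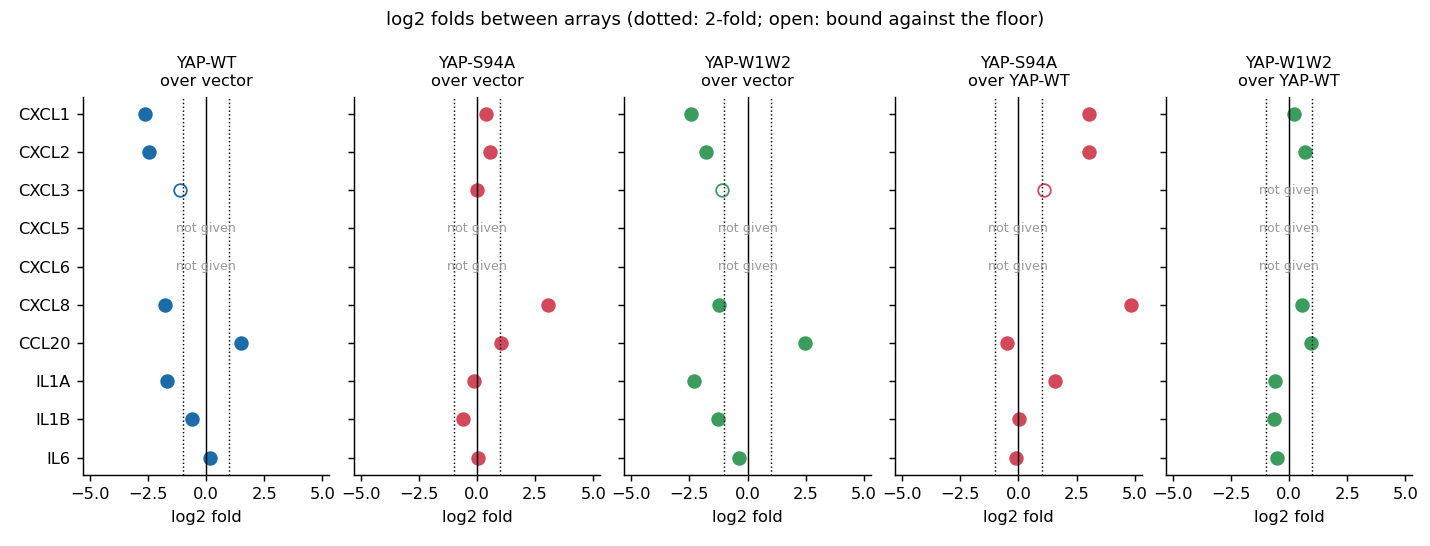
log2 folds of the 10 genes in the 5 comparisons, with "not given" where both arrays lay at the floor (CXCL5 and CXCL6 throughout, CXCL3 for YAP-W1W2 over YAP-WT), dotted lines at 2-fold and open circles for folds that are bounds against the floor. CXCL8 lies left of 0 for YAP-WT and YAP-W1W2 and at 3.07 for YAP-S94A over vector, and no gene passes 2-fold for YAP-W1W2 over YAP-WT.

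Among pairs of measured genes, the likeness of 2 patterns was taken as the root mean square difference of log2 values after subtracting each gene's mean over the 4 arrays. CXCL1 and CXCL2 were the closest pair, at 0.24, followed by IL1B with IL6 at 0.36 and CXCL1 with IL1A at 0.52. IL1B and IL6 had the smallest log2 ranges of the measured members, 1.27 and 0.53. Their Pearson's r over the 4 arrays was 0.64. CXCL8 was 0.96 from CXCL1 and 0.94 from CXCL2. CCL20 was farthest from CXCL8, at 2.36, and 1.01 from IL6, which was nearest among the members by this measure while nearly flat (Pearson's r of −0.55 over the 4 arrays). These are 4 arrays and 1 probe set per gene.

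Over 4543 measured genes with a range of at least 2-fold, those nearest to CXCL1 by the same measure were ZNF335 (0.17), CXCL2 (0.24), the mucosal chemokine CCL28 (0.25), the kallikrein KLK10 (0.34) and the calcium-binding protein S100P (0.34). S100P read 894.6 in YAP-WT, 9381.4 in YAP-S94A, 1382 in YAP-W1W2 and 4074.1 in vector. Nearest to CXCL8 were the tight junction gene CLDN4 (0.38), COXFA4L3 (0.54), TMCC3 (0.70), S100P (0.72) and the histone chaperone HIRA (0.76). Distances that involve arrays below the floor are approximate, since such values were set to it: this holds for CCL28 and CLDN4 in YAP-WT, COXFA4L3 in YAP-WT and YAP-W1W2, and TMCC3 in YAP-W1W2. CLDN4 read 54.5 in YAP-WT, 1130.3 in YAP-S94A, 82.4 in YAP-W1W2 and 261.2 in vector. CCL20 had closer neighbours: SVEP1 (0.11), the simple-epithelial keratin KRT8 (0.14), the peptide transporter TAP2 (0.15), the death receptor TNFRSF21 (0.16) and SH2D4A (0.17). KRT8 read 8931.8 in YAP-WT, 7012.2 in YAP-S94A, 16277 in YAP-W1W2 and 3844.7 in vector, the order of arrays seen for CCL20.

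**Figure D4:**
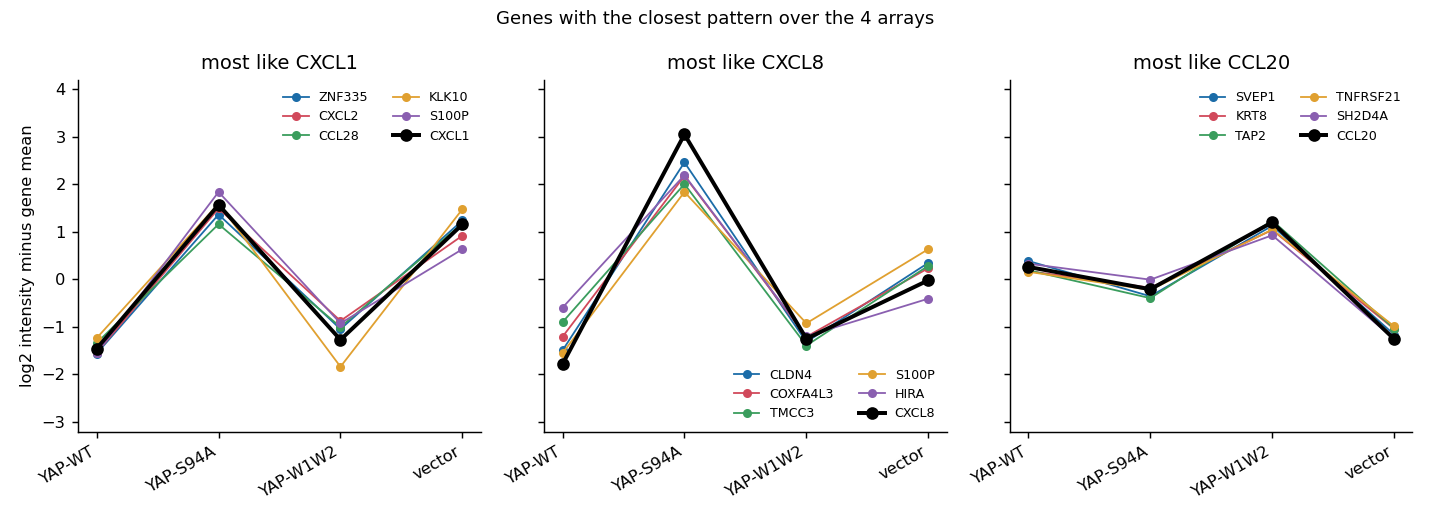
log2 intensity minus each gene's mean over the 4 arrays, for CXCL1, CXCL8 and CCL20 (black) and the 5 genes closest to each (colours). CXCL1 and its neighbours are high in YAP-S94A and vector, CXCL8 and its neighbours peak in YAP-S94A, and CCL20 and its neighbours peak in YAP-W1W2 and are lowest in vector.

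Other chemokines were mostly dim. Of 8 further genes, the CXC chemokines and CX3CL1, 5 were measured. CXCL14, a chemokine of resting epithelium, read 14.9 in YAP-WT, 15.8 in YAP-S94A, 13.2 in YAP-W1W2 and 475.6 in vector, so that it was at least 6.52-fold lower in each YAP array. It counted as measured only through its vector value, and all these folds rest on that value. CXCL10, induced by interferon, was 2.19-fold lower in YAP-W1W2 than in vector, and CXCL16 was 2.37-fold higher in YAP-W1W2 than in YAP-WT. Of 9 further CC genes with a probe set of their own, 1 was measured: CCL28 read 61.5 in YAP-WT, 412.2 in YAP-S94A, 92.1 in YAP-W1W2 and 416.8 in vector. CXCR1 and CCR6 were below the floor on every array, and CXCR2 was above it on 1.

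On the receiving side, 6 of 9 receptor genes were measured. IL1R1, the signalling receptor for IL1A and IL1B, read 280.4 in YAP-WT, 195.9 in YAP-S94A, 305.2 in YAP-W1W2 and 966.4 in vector. All YAP arrays lay below vector, at log2 folds of −1.79, −2.30 and −1.66 in that order. The decoy receptor IL1R2 was 4.03-fold higher in YAP-W1W2 than in vector, at 364.6 against 90.5, and read 115.7 in YAP-WT and 70.5 in YAP-S94A. IL6ST, the shared signalling chain of the IL-6 family, read 10559.2 in YAP-WT, 4536.7 in YAP-S94A, 8831.7 in YAP-W1W2 and 5104 in vector. It was 2.33-fold lower in YAP-S94A than in YAP-WT.

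Within the interleukin-1 family, 5 of 10 genes were measured. IL1RN, the secreted antagonist of IL1R1, varied like IL1A, with 312.6 in YAP-WT, 818.1 in YAP-S94A, 229.7 in YAP-W1W2 and 763.8 in vector. IL37, an anti-inflammatory member, was lower than vector on all YAP arrays, with log2 folds of −1.10 for YAP-WT, −1.43 for YAP-S94A and −1.83 for YAP-W1W2. The IL37 probe set is of the _x_at class and was weak, at 94 in YAP-W1W2, near the floor, and 334.2 in vector. IL18 and CASP1 did not reach 2-fold in any comparison.

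Of 14 genes of the IL-6 family and other epithelial cytokines, 7 were measured. CSF3, the granulocyte growth factor, read 39.7 in YAP-WT, 384.9 in YAP-S94A, 100.8 in YAP-W1W2 and 317 in vector, the order of arrays of CXCL1. TNF read 57.5 in YAP-WT, 176 in YAP-S94A, 114.1 in YAP-W1W2 and 226.6 in vector. LIF, a cytokine of the IL-6 family, differed from both: it read 156.2 in YAP-WT, 694.8 in YAP-S94A, 474.5 in YAP-W1W2 and 167.3 in vector. YAP-S94A exceeded vector 4.15-fold and YAP-WT 4.45-fold.

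Of 12 measured NF-kB factors and feedback genes, 6 passed 2-fold downwards and 0 upwards for YAP-WT against vector, beside 4.95% and 9.11% of all measured genes. The counts were 3 and 0 for YAP-S94A, beside 6.53% and 10.3%, and 5 and 1 for YAP-W1W2, beside 8.4% and 11.4%, each against vector. TNFAIP3, the deubiquitinase that ends NF-kB signalling, read 802.9 in YAP-WT, 2093.5 in YAP-S94A, 1041.3 in YAP-W1W2 and 3269 in vector. The mitochondrial dismutase SOD2 was lowest in YAP-S94A, with 822.6 in YAP-WT, 380.2 in YAP-S94A, 540.6 in YAP-W1W2 and 2929.9 in vector, unlike CXCL1. TNFAIP2 was lower on all YAP arrays alike, with log2 folds of −1.83 for YAP-WT, −1.90 for YAP-S94A and −1.83 for YAP-W1W2. NFKB1 and RELA did not reach 2-fold in any comparison.

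Among AP-1 and C/EBP factors, 8 of 10 were measured. FOSL1 read 448.2 in YAP-WT, 2006.5 in YAP-S94A, 775.3 in YAP-W1W2 and 301 in vector, so YAP-S94A was its highest array, as for CXCL8. FOSL2 was lowest in YAP-S94A, at 1723.5, against 4538.5 in vector. JUNB was 3.32-fold lower in YAP-WT than in vector. Of the 4 measured factors that act on AU-rich mRNAs, ZFP36L2 was 2.13-fold higher for YAP-S94A relative to vector, and ZFP36 was 2.06-fold higher in YAP-W1W2 than in YAP-WT.

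Of 9 measured acute-phase and antimicrobial genes, 6 lay at least 2-fold below vector and 1 above it for YAP-WT, 5 below and 2 above for YAP-S94A, and 5 below and 2 above for YAP-W1W2. Over all measured genes the shares below and above were 4.95% and 9.11% for YAP-WT, 6.53% and 10.3% for YAP-S94A, and 8.4% and 11.4% for YAP-W1W2. Unlike CXCL1, several were also lower in YAP-S94A: S100A8 read 924.9 in YAP-WT, 389.1 in YAP-S94A, 107.1 in YAP-W1W2 and 4633.3 in vector, and the complement factor CFB read 328.6 in YAP-WT, 241.9 in YAP-S94A, 303 in YAP-W1W2 and 836.1 in vector. PTGS2, cyclooxygenase-2, was higher on every YAP array, with 1172.3 in YAP-WT, 727.8 in YAP-S94A, 4990.9 in YAP-W1W2 and 180.7 in vector. PI3, the elastase inhibitor elafin, read 2344 in YAP-WT, 5283 in YAP-S94A, 10493.8 in YAP-W1W2 and 2256.4 in vector. CCL20, PTGS2 and PI3 were thus all highest in YAP-W1W2.

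**Figure D5:**
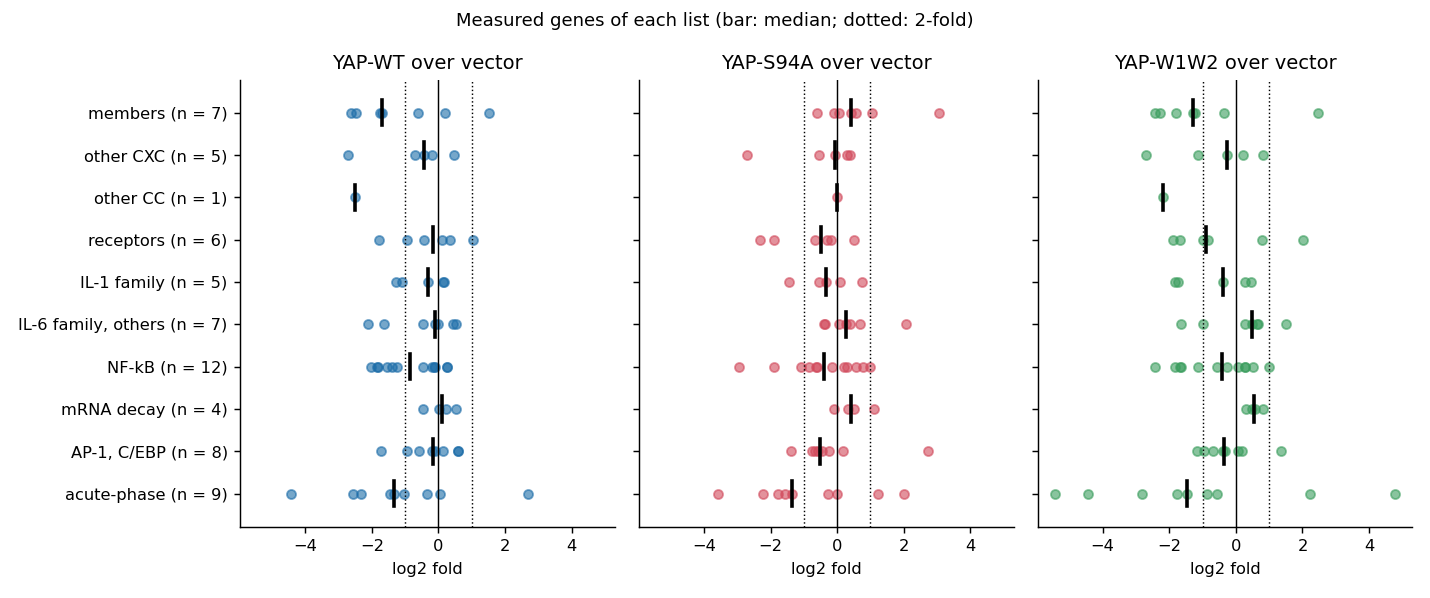
log2 fold over vector of each measured gene in the chemokine and interleukin group and in the 9 related lists, 1 point per gene, with the median as a bar and 2-fold as dotted lines. The group's median is −1.69 for YAP-WT, 0.41 for YAP-S94A and −1.27 for YAP-W1W2, while the median of the acute-phase list is below −1 in all 3 comparisons.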

How the data were processed

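Total RNA of 4 MCF10A cultures was hybridised to 1 Affymetrix array each. The deposited values are probe set intensities on a linear scale; per the submitters' processing notes they came from GCOS, the Affymetrix software, with its version and scaling target not given in the sources used here. The table held 54675 probe sets, 62 of them controls that were left out. Gene names came from the platform annotation, and all 10 members matched RefSeq (GRCh38.p14), which also supplied promoters. Intensities were used as deposited because the trimmed means lay within 10% of each other, were floored at 72.9 and log2-transformed with pandas 2.3.3 and numpy 2.4.6. Each gene took its brightest probe set with 1 symbol. With 1 array per group no test was run, and a gene was counted when it differed at least 2-fold. The calculation was tested on simulated data with small set noise and changes in bright genes only. Changes near the floor and the true spread between arrays were not covered. Named genes are the 10 members, YAP1, CCN2, up to 6 genes of each related list that were measured and passed 2-fold somewhere, and the 5 genes closest in pattern to CXCL1, CXCL8 and CCL20; other genes are named as dim, as not passing 2-fold, as cell type markers or, for PF4, as a neighbour on the chromosome. Members and lists were chosen with earlier results of these data known. The number of arrays limits the precision. Alternatives were 2 other floors, 3 scalings, 2 rules for probe sets and no filter on dim genes.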

Additional observations from a re-analysis of the deposited data

Results flagged for a closer look

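CXCL8 was at least 2-fold from vector in opposite directions with different YAP forms. Its log2 fold over vector was 3.07 in YAP-S94A, −1.76 in YAP-WT and −1.23 in YAP-W1W2. The second CXCL8 probe set gave 2.71, at most −1.80 and −1.30. The difference between the forms was not tested, because each is 1 array and all share the vector array.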

How the results depend on the processing

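Folds were recomputed under 8 alternatives, except where none could be had (IL6, CXCL3 and 1 comparison of CXCL2 with the highest floor, CXCL8 with plain _at probe sets). Of 297 gene-level values, 15 changed their side of 2-fold or reversed a call, and 6 more changed sign while under 2-fold both ways. Part of the 297 could not change. The 39 values without the filter on dim genes were fixed, because that filter alters no fold. The rules for probe sets could not alter CXCL1, CXCL3, CCL20 or IL6, which have 1 plain _at probe set each. Medians are called moved past 1.5-fold. Scaling mattered for CCL20: in YAP-S94A against vector, 1 member in place of 2 was higher with equal trimmed means, median centring or quantile normalization, since CCL20 dropped to 0.92, 0.90 and 0.89 (log2). For YAP-W1W2 over YAP-WT, 1 in place of 0 was higher with equal trimmed means and median centring, with CCL20 at 1.00 and 1.07. With the mean over probe sets, which adds dim ones, the median was −1.05 for YAP-WT against vector and 0.62 for YAP-S94A over YAP-WT; CXCL2 then lost its calls in YAP-WT (−0.77) and YAP-W1W2 (−0.63) against vector, IL1A lost its call for YAP-S94A over YAP-WT (0.62), and IL1B gained one in YAP-WT (−1.11). The counts there were 4 lower in YAP-W1W2 and 3 higher for YAP-S94A over YAP-WT. With plain _at probe sets, 4 members were measured: 1 was lower and the median was −0.22 in YAP-WT against vector, 1 was higher in YAP-S94A against vector, 2 were lower in YAP-W1W2 against vector, and 1 was higher in YAP-S94A over YAP-WT, with a median of −0.042. There CXCL2 stood at 0.15 in YAP-WT over vector, and IL1A at 0.022 in YAP-W1W2 over vector and −0.34 in YAP-S94A over YAP-WT. The directions of CXCL1 and CCL20 over vector held under the 3 scalings. The other alternatives could not alter their folds, because each has 1 plain _at probe set that lies above every floor used. No paired analysis was possible because each group is 1 array, and none could be left out. Signal over background limits CXCL3, CXCL5, CXCL6 and IL6.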

Other observations

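The 6 CXC members lie in 1 run of 9 protein-coding genes on chromosome 4, in the order CXCL8, CXCL6, PF4V1, CXCL1, PF4, PPBP, CXCL5, CXCL3 and CXCL2. CXCL6, PF4V1, PPBP and CXCL5, which lie between the varying genes, were below the floor on all 4 arrays. They therefore have no pattern to set beside that of their neighbours, and a link between gene order and expression was not tested. PF4, a platelet chemokine next to CXCL1 and named after its values were seen, read 285 in YAP-WT, 207.8 in YAP-S94A, 358.9 in YAP-W1W2 and 103.5 in vector. It was higher than vector on every YAP array, the order of arrays of CCL20 and not of its neighbour CXCL1. Its probe set is of the _x_at class.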
